A study of Mus musculus with 14 samples.

Results

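The lysosomal enzyme and membrane genes described here are 10 genes, chosen by symbol and read from 10 of the 56748 rows of the count table. They are Ctsb, Ctsd, Ctsl, Ctss and Ctsz, which encode cathepsins, Lamp1 and Lamp2, which encode membrane glycoproteins, and Hexa, Grn and Npc2, which encode soluble proteins of the lysosomal lumen. Each symbol matched 1 row, and all 10 genes passed the filter on low counts. Brain RNA at postnatal day 23 (P23) was sequenced from 7 Rik null mice (4 female, 3 male) and 7 wild-type (WT) littermates (3 female, 4 male), all of strain C57BL6/J. Rik null mice are homozygous for a deletion in the first intron of 2310061I04Rik (Rik), which arose by chance in 1 embryonic stem cell clone, so that every null animal descends from that clone. Per the study they become runted and ataxic and die soon after this age, and the genotype and the state of health of the animals at P23 cannot be told apart. One sagittal side of each brain was used, and in such bulk tissue fewer cells of a type and less RNA per cell cannot be told apart.

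Lysosomes are acidic organelles in which hydrolases break down protein, lipid and sugar chains that arrive by endocytosis and autophagy. Most of the soluble hydrolases are tagged in the Golgi with mannose 6-phosphate and sorted to the lysosome by receptors, a proton pump of the vacuolar type keeps the lumen acidic, and the cathepsins activate or trim many of the other enzymes. Transcription of many lysosomal genes is under the control of TFEB, TFE3 and MITF, which bind an E-box element. In the brain, inherited loss of single lysosomal proteins causes storage diseases, and microglia and macrophages are rich in lysosomal proteases.

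The 250 bases before and 50 bases after the RefSeq start site (GRCm38.p6) were available for 9 of the 10 genes, all but Ctsb. They are shown for 4 genes because these span the range of the element, with Lamp1 and Ctsd holding several copies, Ctsl a single copy and Hexa none, and because Ctsl and Hexa were the genes that differed between genotypes without overlap. The sequences read 5′ to 3′ along the gene, and capitals mark CACGTG, which reads the same on both strands.
Lamp1 (chr8:13158911-13159210, plus strand): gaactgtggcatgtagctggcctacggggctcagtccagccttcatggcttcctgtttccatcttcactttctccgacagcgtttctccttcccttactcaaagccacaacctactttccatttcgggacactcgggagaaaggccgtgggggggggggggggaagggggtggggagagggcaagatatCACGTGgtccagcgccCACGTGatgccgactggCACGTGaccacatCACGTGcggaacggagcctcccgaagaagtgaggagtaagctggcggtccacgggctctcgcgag
Ctsd (chr7:142387778-142388077, minus strand): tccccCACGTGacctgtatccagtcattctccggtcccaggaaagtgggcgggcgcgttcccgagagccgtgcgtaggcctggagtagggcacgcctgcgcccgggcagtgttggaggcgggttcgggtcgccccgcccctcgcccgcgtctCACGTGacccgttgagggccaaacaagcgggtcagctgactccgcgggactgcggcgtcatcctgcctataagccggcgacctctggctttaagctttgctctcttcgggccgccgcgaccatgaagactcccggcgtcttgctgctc
Ctsl (chr13:64370471-64370770, minus strand): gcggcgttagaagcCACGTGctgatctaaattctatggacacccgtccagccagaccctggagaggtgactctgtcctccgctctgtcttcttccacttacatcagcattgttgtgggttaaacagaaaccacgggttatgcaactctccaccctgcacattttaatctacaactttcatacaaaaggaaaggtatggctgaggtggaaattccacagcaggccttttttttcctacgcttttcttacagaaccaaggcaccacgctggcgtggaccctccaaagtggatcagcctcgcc
Hexa (chr9:59539290-59539589, plus strand): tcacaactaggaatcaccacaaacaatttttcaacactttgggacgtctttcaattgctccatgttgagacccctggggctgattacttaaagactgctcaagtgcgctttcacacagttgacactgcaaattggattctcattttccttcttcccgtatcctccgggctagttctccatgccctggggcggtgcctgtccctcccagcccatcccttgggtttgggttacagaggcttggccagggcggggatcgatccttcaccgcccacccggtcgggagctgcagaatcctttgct
Lamp1 had 4 matches, 61, 45, 28 and 15 bases before its start site. Ctsd had 2, at 245 and 98 bases before it, and Ctsl had 1, at 236 bases. The windows of Ctss, Ctsz, Lamp2, Hexa, Grn and Npc2 had no match. Over all 32851 RefSeq windows of this length, 7.15% held the motif at least once, 0.594% at least 2 times and 0.0244% at least 4 times. The longer form CACGTGAC, searched on both strands (GTCACGTG on the other) and overlapping the shorter one, was present 2 times in Ctsd and 1 time in Lamp1, against 2.25% of all windows with any match. The RefSeq start of Ctsl lies 370 bases inside the GENCODE M21 gene, and those of Ctsd and Grn lie 211 and 192 bases inside, so that for these genes the window does not surround the outermost annotated start. A match is a property of these letters and not evidence of binding.

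Total counts were 14.7 to 17.9 M per library in Rik null and 14.7 to 17.0 M in WT brains. Rik itself had 1.03 to 3.37 CPM (counts relative to the TMM-scaled library size in M) in Rik null and 30.3 to 40.9 CPM in WT libraries, without overlap, as the labels state. Marker lists of neurons, astrocytes, oligodendrocytes and microglia were all detected, as brain tissue would give. Library Rik null 1 lay apart from the other 6 Rik null libraries on the leading principal component, at -54.5 against -23.8 to -22.0, and WT 4 lay at -45.0 on the third. Of 16882 genes tested, 34.4% were called at an adjusted p under 0.05, 16.5% higher and 17.9% lower in Rik null. Scaled by library size alone, 63.8% of the called genes were higher in Rik null, against 47.9% with TMM, and the all-gene median of the log2 fold change was 0.07 in place of -0.00. The adjusted p-values below were computed by edgeR (quasi-likelihood F test) and adjusted by the Benjamini-Hochberg method over every gene tested, except where a permutation test is named.

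The 10 genes did not move as a block. Ctsl, Grn and Lamp2 were higher in Rik null brains, Hexa and Npc2 were lower, and Ctsb, Ctsd, Ctss, Ctsz and Lamp1 did not pass the test. The share called was 5 of 10, or 50%, beside 34.4% of all genes tested, with 3 called higher and 2 lower. The libraries of the genotypes did not overlap for 2 of the 10, Ctsl and Hexa, beside 12.4% of all genes tested. None of the 10 differed by as much as 2-fold, and their median absolute log2 fold change was 0.20, beside 0.22 for all genes.

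**Figure D1:**
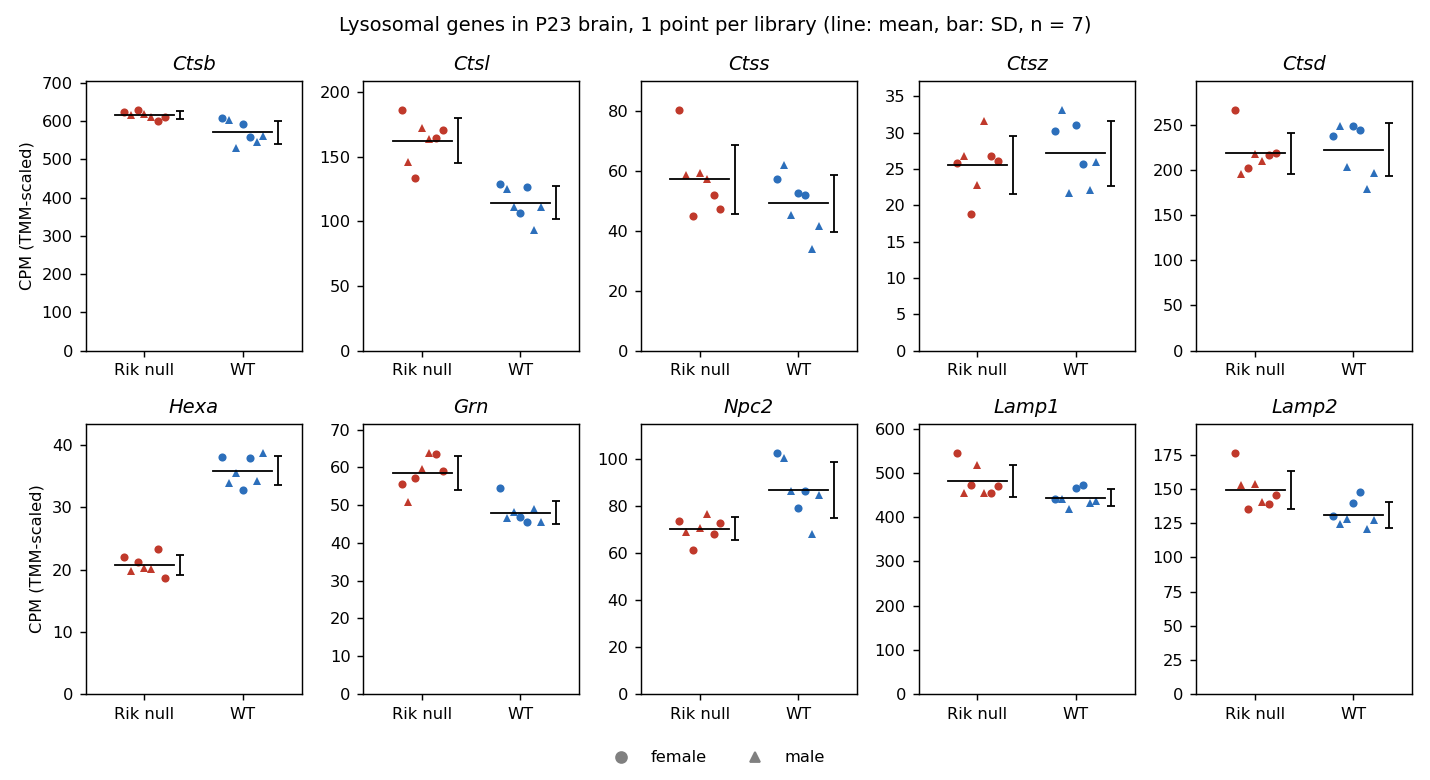
CPM of the 10 lysosomal genes in each library, Rik null left and WT right in every panel, with circles for females and triangles for males, the mean as a line and the SD as a bar (n = 7 each). The Ctsl and Hexa panels show no overlap between genotypes, with Ctsl at 133.8 CPM or more in Rik null against at most 129.1 CPM in WT, and Hexa at 23.4 CPM or less in Rik null against at least 32.8 CPM in WT.

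Of the 5 cathepsins among the 10 genes, members of a family that carries most of the protein-degrading activity of the lysosome, Ctsl was the only one called. Ctsl (ENSMUSG00000021477, GRCm38 chromosome 13, 64359337 to 64370890, minus strand) encodes cathepsin L, a cysteine endopeptidase with broad substrates. Its lowest, median and highest values were 133.8, 164.9 and 186.3 CPM in Rik null, against 93.2, 111.3 and 129.1 CPM in WT libraries. Every Rik null library lay above every WT library, the closest being Rik null 3 and WT 1. The mean was 162.5 ± 17.5 CPM in Rik null and 114.6 ± 12.97 CPM in WT (SD, n = 7 each), 1.42-fold higher in Rik null (log2 fold change 0.50, SE 0.08, adjusted p = 4.41e-05).

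Ctsb (ENSMUSG00000021939, chromosome 14, 63122462 to 63145923, plus strand) encodes cathepsin B, a cysteine protease that also removes dipeptides from the C-terminus of its substrates. It was the gene of the 10 with the highest CPM, at 600.1, 615.9 and 629.4 CPM (lowest, median, highest) in Rik null against 530.0, 561.7 and 607.2 CPM in WT. The Rik null libraries were tightly grouped, and 6 of 7 lay above the highest WT library. The log2 fold change was 0.11 (95% interval 0.01 to 0.20), which did not pass after adjustment (adjusted p = 0.0691). It passed with a DESeq2 Wald test (0.11, adjusted p = 0.0289), with a filter of 1 CPM (0.12, 0.0407) and with scaling by library size alone (0.18, 0.00236). Ctsb shares 774 exonic bases with Fdft1 on the opposite strand, an enzyme gene of cholesterol synthesis whose counts amounted to 15.2% of those of Ctsb and whose log2 fold change was -0.48 (adjusted p = 1.11e-05). Whether counting used strand is not given in the sources used here, so reads in the shared bases cannot be assigned to either gene.

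Ctsd (ENSMUSG00000007891, chromosome 7, 142375911 to 142388038, minus strand) encodes the aspartic protease cathepsin D, whose loss causes a neuronal ceroid lipofuscinosis. It had 195.2, 216.9 and 266.2 CPM in Rik null (lowest, median, highest), against 178.6, 237.2 and 249.0 CPM in WT. The genotypes overlapped over almost the whole range, with the single high value in Rik null 1. The log2 fold change was -0.03, with a 95% interval of -0.19 to 0.14 (adjusted p = 0.821), and its sign changed with scaling by library size alone (0.04), without Rik null 2 (0.0035) and in males alone (0.0084).

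Ctss (ENSMUSG00000038642, chromosome 3, 95526786 to 95556403, plus strand) encodes cathepsin S, a cysteine protease that is stable at neutral pH and is made mainly by microglia in the brain. It had 45.1, 57.4 and 80.4 CPM in Rik null (lowest, median, highest), against 33.8, 52.0 and 61.9 CPM in WT. Only Rik null 1 lay above the WT range, and WT 6 and WT 7 lay below the Rik null range. The log2 fold change was 0.22 (95% interval -0.04 to 0.48, adjusted p = 0.187), and without Rik null 1 it was 0.12 (adjusted p = 0.417).

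Ctsz (ENSMUSG00000016256, chromosome 2, 174427493 to 174439039, minus strand) encodes cathepsin Z, also called cathepsin X, a carboxypeptidase. It had 18.9, 26.1 and 31.6 CPM in Rik null, against 21.7, 25.9 and 33.1 CPM in WT (lowest, median, highest). The genotypes overlapped almost fully, and the log2 fold change was -0.09 (95% interval -0.32 to 0.14, adjusted p = 0.578), with a changed sign in males alone (0.08). Ctsz shares 10 exonic bases with Nelfcd on the opposite strand.

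A shift of Ctss relative to Ctsd did not pass the adjusted threshold. The ratio of Ctss to Ctsd counts within a library was 0.261 ± 0.0351 in Rik null libraries and 0.220 ± 0.0203 in WT (SD, n = 7 each), a log2 difference of 0.24 (exact permutation test, two-sided, p = 0.0221, adjusted p over 5 ratios = 0.0554). It passed without Rik null 3 (0.28), without Rik null 7 (0.29) or without WT 2 (0.27), each in turn.

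Of the membrane glycoproteins that line the lysosome, Lamp2 was called and Lamp1 was not. Lamp2 (ENSMUSG00000016534, chromosome X, 38401357 to 38456454, minus strand) encodes a protein with 3 annotated coding transcripts here, among whose products are the receptor of chaperone-mediated autophagy and forms used in autophagosome fusion. It had 135.2, 145.9 and 176.4 CPM in Rik null (lowest, median, highest), against 121.0, 128.0 and 148.2 CPM in WT. The genotypes overlapped, with Rik null 1, 2 and 4 above the highest WT library. The mean was 149.2 ± 13.99 CPM in Rik null and 131.2 ± 9.51 CPM in WT (SD, n = 7 each), with a log2 fold change at 0.18 (SE 0.06, adjusted p = 0.0287). This call did not hold without Rik null 4 (0.18, adjusted p = 0.0526), WT 2 (0.17, 0.0581), WT 3 (0.18, 0.0523) or WT 6 (0.16, 0.0550), with no count filter (0.18, 0.0604), or in females alone (0.09, 0.576).

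Lamp1 (ENSMUSG00000031447, chromosome 8, 13159161 to 13175338, plus strand), whose product is the most widely used marker of lysosomes, had 454.7, 471.8 and 545.4 CPM in Rik null, against 418.0, 440.5 and 473.1 CPM in WT (lowest, median, highest). The Rik null libraries 1 and 4 were the highest, and 3 of 7 lay above the WT range. The log2 fold change was 0.12 (95% interval 0.01 to 0.23, adjusted p = 0.0892), and it passed only with scaling by library size alone (0.19, adjusted p = 0.00562). The Lamp2 to Lamp1 count ratio was 0.309 ± 0.0168 in Rik null libraries and 0.295 ± 0.0123 in WT (SD, n = 7 each). The log2 difference of 0.07 did not pass (exact permutation test, p = 0.0979, adjusted p = 0.0979), so the call of Lamp2 and not of Lamp1 is no evidence of a difference between them.

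Hexa had the largest difference of the 10 genes, and it was lower in Rik null. Hexa (ENSMUSG00000025232, chromosome 9, 59539540 to 59565109, plus strand) encodes the alpha subunit of beta-hexosaminidase, an enzyme that degrades ganglioside GM2 with the help of the activator protein from Gm2a, and whose loss in humans is Tay-Sachs disease. It had 18.7, 20.2 and 23.4 CPM in Rik null (lowest, median, highest), against 32.8, 35.5 and 38.7 CPM in WT. All 7 Rik null libraries lay far below all 7 WT libraries, and neither genotype held a library apart from its own group. The mean was 20.8 ± 1.56 CPM in Rik null and 35.9 ± 2.36 CPM in WT (SD, n = 7 each), 1.73-fold lower in Rik null (log2 fold change -0.79, SE 0.07, adjusted p = 5.77e-08). Hexa shares 255 exonic bases with Tmem202 on the opposite strand, whose counts were 5.77% of those of Hexa.

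Gm2a, named after its values were seen, was lower too. It had 86.5 ± 5.45 CPM in Rik null and 105.6 ± 11.7 CPM in WT (-0.29, adjusted p = 0.00266), a call that did not hold in males alone (-0.16, 0.267). Psap, which encodes the precursor of the saposins, the activators of several other sphingolipid hydrolases, was higher at 1586 ± 47.1 CPM in Rik null against 1378 ± 72.8 CPM in WT (0.20, adjusted p = 0.00148), without overlap, but not past the threshold in females alone (0.18, 0.117).

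Markers of microglia, which are rich in lysosomal proteases, did not all move alike. The counts called below stand beside 34.4% of all genes tested. Of 10 homeostatic microglial genes 9 were lower and 0 higher in Rik null. Their median log2 fold change was -0.94, with a summed level of 78.6 to 140.6 CPM in Rik null against 193.3 to 255.0 CPM in WT. Fcrls (-2.01), P2ry12 (-1.40) and Selplg (-1.21) led that list. Of 10 genes shared by microglia and macrophages 3 were lower, 0 higher and 7 not called, or 30% called. Their log2 fold changes ran from -1.69 to 0.25 with a median of -0.30, and Itgam (-1.69) and Csf1r (-0.63) led the lower ones. Their summed level was 162.9 to 223.7 CPM in Rik null against 177.1 to 281.5 CPM in WT. Of 11 tested activated microglial genes 6 were higher, among them Clec7a (1.87) and Lgals3 (1.47), and 1 was lower, Axl. Clec7a and Lgals3 were at most 0.69 and 2.93 CPM in WT and 2.69 and 7.65 CPM in Rik null, with overlap between genotypes. The counts of higher and lower genes were 4 and 1 with DESeq2, and 2 and 0 without Rik null 1 and WT 4. All 9 oligodendrocyte genes were lower (median -0.76), with a summed level of 13102 to 16330 CPM in Rik null against 19176 to 23552 CPM in WT. Of 8 astrocyte genes 5 were lower and 0 higher (median -0.32), and their sum was 5030 to 5791 CPM in Rik null against 6182 to 7633 CPM in WT. Blood genes were lower in 5 of 5, with a summed level of 222.3 to 387.0 CPM in Rik null against 377.3 to 779.7 CPM in WT. With DESeq2 4 of the 5 blood genes were called lower, and without Rik null 1 and WT 4 also 4. Of 7 choroid plexus genes 4 were lower, with sums of 590.1 to 762.0 CPM in Rik null against 552.7 to 868.7 CPM in WT. The pituitary genes Gh and Pomc were at most 2.63 and 2.76 CPM in Rik null, against 110.7 and 269.6 CPM in WT 4, and their calls as lower were lost without Rik null 1 and WT 4 (adjusted p = 0.0644 for Gh and 0.309 for Pomc). Of 8 neuronal genes 1 was higher and 2 lower (median -0.06). Of 6 endothelial genes 1 was higher and 0 lower (median -0.01), or 1 and 2 without Rik null 1 and WT 4. Of 5 tested border macrophage genes 0 were called (median 0.35). No marker of these lists was at 0 in all libraries, and their part in the differences of the lysosomal genes was not tested.

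Npc2 (ENSMUSG00000021242, chromosome 12, 84754562 to 84773152, minus strand) encodes a soluble sterol-binding protein that hands cholesterol to NPC1 in the lysosomal membrane for export. It had 61.2, 70.7 and 76.4 CPM in Rik null (lowest, median, highest), against 68.1, 86.2 and 102.4 CPM in WT. The highest Rik null library lay below 6 of the 7 WT libraries, and WT 6 alone fell inside the Rik null range. The mean was 70.2 ± 4.88 CPM in Rik null and 86.7 ± 11.9 CPM in WT (SD, n = 7 each), with a log2 fold change at -0.30 (SE 0.08, adjusted p = 0.00463), which did not pass in males alone (-0.24, 0.172).

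On the same route of cholesterol, Lipa, the acid lipase that frees cholesterol from its esters, was lower without overlap, at 15.6 ± 1.28 CPM in Rik null and 23.2 ± 3.00 CPM in WT (-0.57, adjusted p = 6.33e-05), though not past the threshold in females alone (-0.39, 0.0705). Npc1 had 71.4 CPM in Rik null and 73.5 CPM in WT on average, with a log2 fold change of -0.04 (95% interval -0.18 to 0.09, adjusted p = 0.648), and its sign changed with scaling by library size alone (0.03), without WT 6 (0.01) and in females alone (0.06). The Npc2 to Npc1 count ratio was 0.987 ± 0.0986 in Rik null libraries and 1.198 ± 0.244 in WT (SD, n = 7 each). The log2 difference of -0.26 did not pass (exact permutation test, p = 0.0769, adjusted p = 0.0979), while without WT 6 it was -0.36 (adjusted p = 0.0146).

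Grn (ENSMUSG00000034708, chromosome 11, 102430315 to 102437048, plus strand) encodes progranulin, a secreted glycoprotein that reaches the lysosome and is cut there into granulins by proteases that include cathepsin L, and whose loss in humans causes frontotemporal dementia or a lipofuscinosis. It had 50.8, 59.1 and 63.8 CPM in Rik null (lowest, median, highest), against 45.5, 46.9 and 54.5 CPM in WT. Rik null 2 was the only Rik null library below the highest WT library, which was WT 1. The mean was 58.5 ± 4.55 CPM in Rik null and 48.0 ± 3.12 CPM in WT (SD, n = 7 each), with a log2 fold change at 0.28 (SE 0.06, adjusted p = 0.00174), which did not pass in females alone (0.26, 0.107).

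Prosaposin, the product of Psap, binds progranulin and shares its way to the lysosome. The Grn to Psap count ratio was 0.0369 ± 0.00185 in Rik null libraries and 0.0349 ± 0.00197 in WT (SD, n = 7 each), a log2 difference of 0.08 that did not pass (exact permutation test, p = 0.0810, adjusted p = 0.0979). Grn shares 68 exonic bases with Fam171a2 on the opposite strand, whose counts were 135% of those of Grn and whose own log2 fold change was 0.01 (adjusted p = 0.942).

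**Figure D2:**
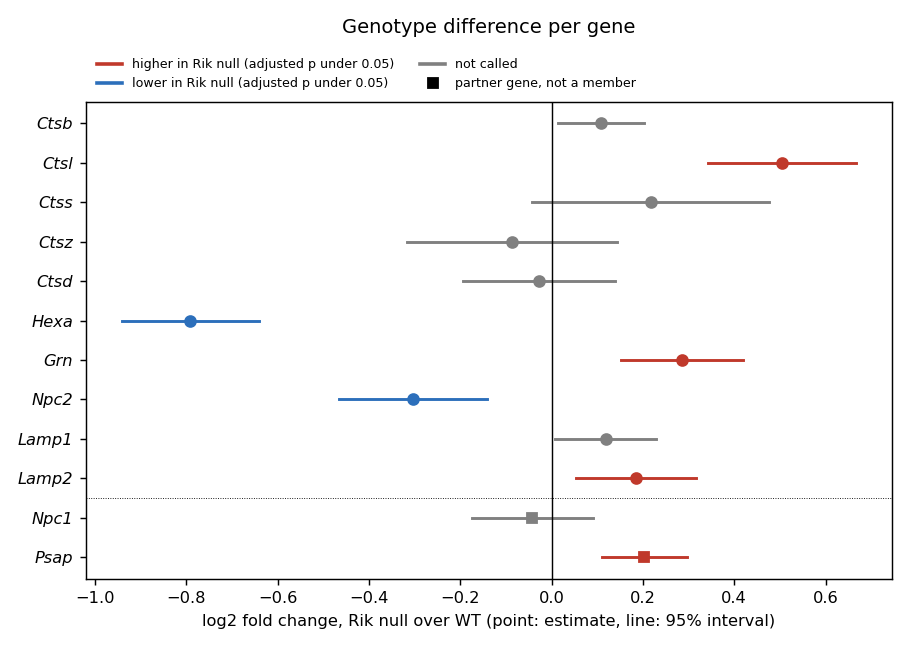
Log2 fold change, Rik null over WT, of the 10 genes and of the partner genes Npc1 and Psap, as a point with its 95% interval (7 libraries per genotype). Hexa at -0.79 and Ctsl at 0.50 lie farthest from 0 in either direction, and the intervals of Ctsb and Lamp1 lie just above 0 without passing after adjustment.

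**Figure D3:**
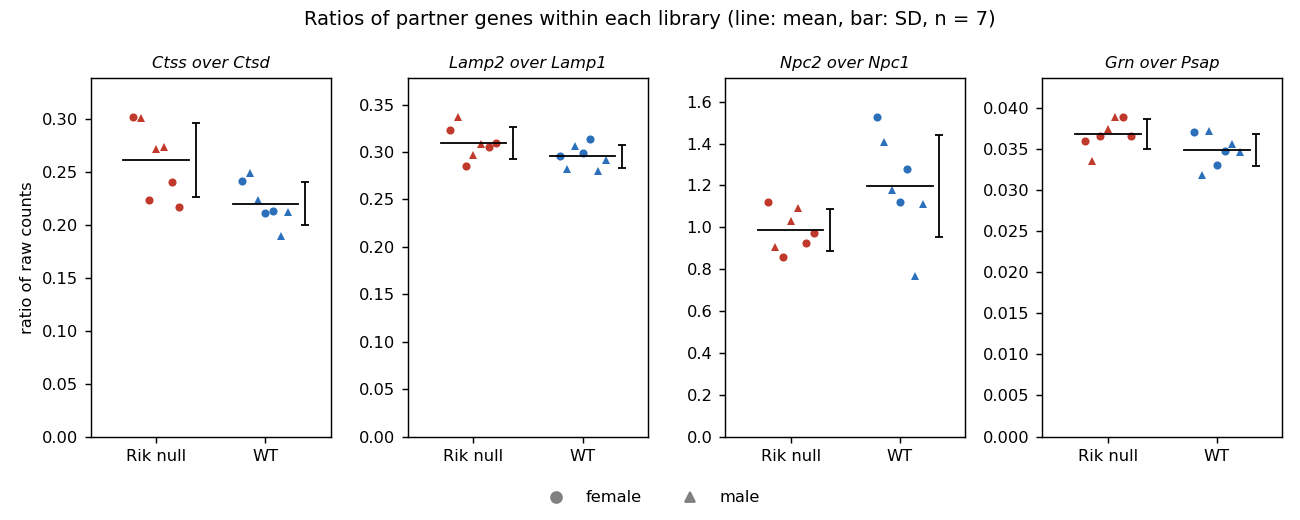
Ratios of raw counts of 4 gene pairs within each library, Rik null left and WT right, with circles for females, triangles for males, the mean as a line and the SD as a bar (n = 7 each). The genotypes overlap in all 4 panels, and none of the 4 ratios passed the adjusted threshold, the closest being Ctss over Ctsd at 0.261 in Rik null and 0.220 in WT.

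No interaction with sex was detected with these numbers of animals. In a fit with an interaction of genotype and sex, 0 of 16882 genes passed after adjustment by edgeR and 984 had an unadjusted p under 0.05, none of them among the 10. Their adjusted p-values for the interaction were 0.868 to 0.983.

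Individual animals differed within a genotype. Rik null 1 was the highest Rik null library for 5 of the 10 genes and Rik null 3 was the lowest for 5. WT 6 was the lowest WT library for 5 genes and below the WT median for 9. After the mean of each genotype was taken out, Pearson r over the 14 libraries was 0.85 between Ctsd and Ctss, 0.84 between Ctsl and Npc2, and 0.81 between Lamp1 and Lamp2, while Hexa reached at most 0.28 with any other of the 10 and Grn and Lamp2 had -0.41. These are descriptions, since all pairs share the same libraries and their quality.

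**Figure D4:**
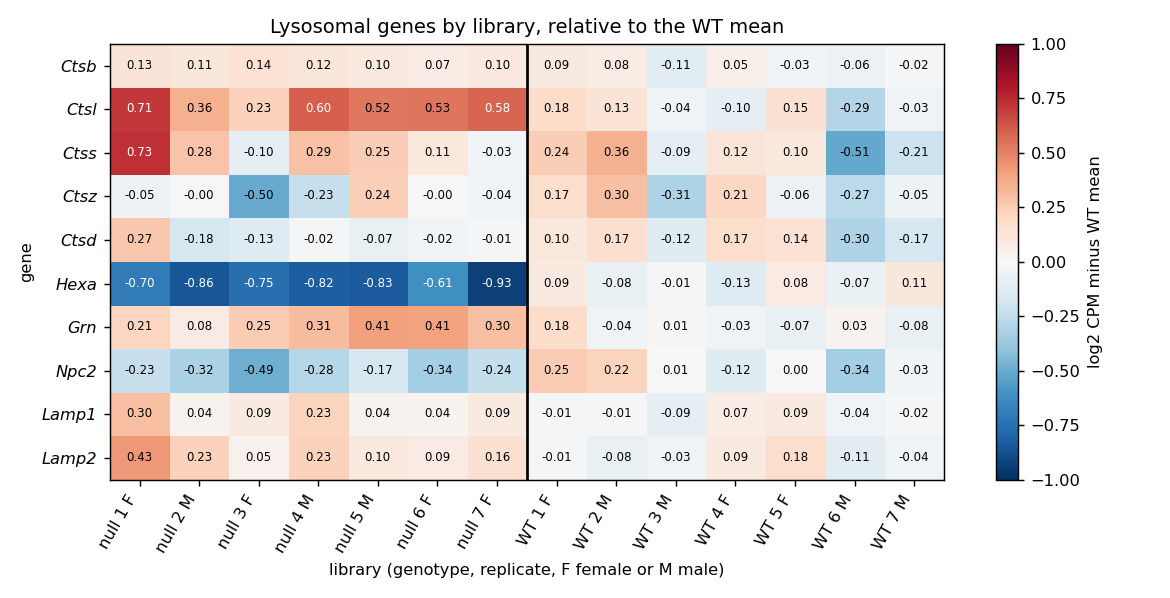
Log2 CPM of each of the 10 genes (rows) in each library (columns, Rik null left of the line and WT right, F female and M male) minus the WT mean of that gene. The Hexa row is negative in all 7 Rik null libraries, the Ctsl row is positive in all 7, and the Ctss row has its highest value in Rik null 1 (0.73) and its lowest in WT 6 (-0.51).

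Over the same residuals, genes of high likeness to Ctsd were Creb3 (r 0.97), Cpe (0.97) and Rpl29 (0.95), and to Ctss Prdx2 (0.97) and Rps25 (0.96). Npc2 was like Arl3 and Micos13 (0.98 each), Ctsl like Bcl2l1 (0.94), Lamp2 like Pkia (0.94), Ctsz like Rprm (0.94), Lamp1 like Ccdc25 (0.93) and Ctsb like Smim43 (0.90). The closest genes to Grn and Hexa were less alike, Mark2 at 0.85 and Asb2 at 0.80. None of the other 9 genes appeared among the 3 nearest of any of the 10.

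Levels were compared between genes on the deposited FPKM scale, which divides counts by gene length. Lamp1 was the highest, at 179 ± 13.2 FPKM in Rik null and 164 ± 7.496 FPKM in WT (SD, n = 7 each). Ctsd (92.0 FPKM in Rik null, 93.4 in WT) and Ctsb (101 in Rik null, 93.2 in WT) followed and overlapped each other in WT, and Ctss (41.8 in Rik null, 35.8 in WT) came next, apart from its neighbours in WT. The other genes had WT means of 13.6 to 18.6 FPKM, each with a range that overlapped that of the gene next to it in that order. Hexa, the sixth in WT at 17.8 ± 1.18 FPKM, was the lowest of the 10 in Rik null at 10.3 ± 0.786 FPKM. Ctsd shares 808 exonic bases with Gm49369 on the same strand, and Lamp1 shares 249 with Grtp1 on the opposite strand. Ctsl shares 1742 with the antisense gene Gm47123 and 395 with the pseudogene Gm49230. Gm49369, Gm47123 and Gm49230 had 0 counts, and how reads in shared bases were counted is not known. The order also depends on the length used. As TMM-scaled CPM per kb, Lamp2 had 13.7 in WT with the gene length and 36.4 with the length of the principal transcript, where it lay beside Ctss (36.3), and their ranges overlapped.

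The wider set of lysosomal genes, 129 symbols in 6 lists without the 10 genes, was as mixed. Of 126 tested, 28 were higher and 21 lower in Rik null, or 38.9% called beside 34.4% of all genes tested, with a median log2 fold change of 0.02. Without Rik null 1 and WT 4 those counts were 27 and 20, and for the 10 genes they stayed at 3 and 2. With scaling by library size alone more of the listed genes were higher and fewer lower, as given below.

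Among 42 tested enzymes and activators, 8 were higher and 8 lower, or 38.1% called beside 34.4% of all genes tested (median 0.02). Besides Lipa, the leading genes included Tpp1, the tripeptidyl peptidase lost in a lipofuscinosis, with 61.2 ± 7.33 CPM in Rik null and 82.3 ± 5.63 CPM in WT (-0.43, adjusted p = 1.38e-04), and Man2b1, the lysosomal alpha-mannosidase, with 53.5 ± 2.96 CPM in Rik null and 42.2 ± 1.56 CPM in WT (0.34, adjusted p = 1.09e-04). Both were without overlap. The enzyme with the largest fold, named after its values were seen, was Sgsh, a heparan sulfate sulfatase, at 3.33 ± 1.00 CPM in Rik null and 6.41 ± 0.997 CPM in WT (-0.94, adjusted p = 2.95e-04), which did not pass in females alone (-0.82, 0.0600).

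Among 29 membrane proteins, 7 were higher and 6 lower, or 44.8% called beside 34.4% of all genes tested (median 0.03). Tpcn1, a lysosomal cation channel, had 21.97 ± 2.90 CPM in Rik null and 40.1 ± 4.86 CPM in WT (-0.87, adjusted p = 7.58e-07), and Abcb9, a peptide transporter, had 27.1 ± 2.76 CPM in Rik null and 41.3 ± 4.33 CPM in WT (-0.61, adjusted p = 1.02e-05). Ctns, the cystine exporter (0.46, adjusted p = 4.05e-04), and Cd68, a macrophage sialomucin (0.61, adjusted p = 6.35e-04), were higher, though neither passed in females alone (0.0501 and 0.0668).

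Of 18 subunits of the proton pump 5 were higher and 1 lower (median 0.04), or 33.3% called beside 34.4% of all genes tested. Atp6v1b2 was the clearest of those that rose, with 856.8 ± 30.5 CPM in Rik null and 701.8 ± 12.96 CPM in WT (0.29, adjusted p = 2.39e-05), and Atp6v0a2 was the one that fell, with 56.6 ± 1.94 CPM in Rik null and 74.2 ± 3.95 CPM in WT (-0.39, adjusted p = 1.17e-05). With scaling by library size alone 8 were higher and 1 lower. Of 16 sorting genes 1 was higher and 4 lower (median -0.09), or 31.25% called, which is also below the share of all genes. Gnptab, which encodes the enzyme that starts the mannose 6-phosphate tag, had 74.3 ± 4.33 CPM in Rik null and 92.9 ± 8.52 CPM in WT (-0.32, adjusted p = 4.70e-04). The 4 lower calls became 1 with library size alone and 2 with DESeq2.

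Of 17 regulators 5 were higher and 2 lower (median -0.01), or 41.2% called beside 34.4% of all genes tested. With library size alone 6 were higher and 0 lower. Tfe3 had 37.8 ± 2.09 CPM in Rik null and 28.7 ± 2.07 CPM in WT, without overlap (0.40, adjusted p = 1.23e-04), while Tfeb (-0.15, 95% interval -0.40 to 0.09, adjusted p = 0.337) and Mitf (-0.04, 95% interval -0.32 to 0.23, adjusted p = 0.833) did not pass, and the sign of Mitf changed with library size alone (0.02), without WT 6 (0.07) or WT 7 (0.02), and in females alone (0.18). Fnip1 (0.40, adjusted p = 1.56e-05), Rragc (0.43, 4.74e-04) and Flcn (0.35, 0.00128), which encode 2 members of the folliculin complex and a GTPase it acts on, were higher. Fnip2, of the same complex, did not pass (0.18, adjusted p = 0.137). Rragd, the paralogue of Rragc (-0.17, adjusted p = 0.0177), and Rptor, an mTORC1 subunit (-0.20, 0.0206), were the 2 called lower. These 3 genes were named after their values were seen. With library size alone Rragd (-0.10, 0.136) and Rptor (-0.13, 0.130) did not pass, neither gene passed in either sex alone, and Rptor was not called without Rik null 2 (-0.18, 0.0516). In males alone Tfe3 (0.30, 0.0580) and Flcn (0.25, 0.0674) did not pass.

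Of 4 tested cathepsin inhibitors 2 were higher and none lower, or 50% called beside 34.4% of all genes tested. Cstb, the cytosolic cystatin B that inhibits cathepsins B, L and S, had 27.7 ± 5.13 CPM in Rik null and 18.9 ± 2.81 CPM in WT (0.56, adjusted p = 9.79e-04). Ctla2a, a mouse inhibitor that resembles the propeptide of cathepsin L, had 3.13, 5.598 and 42.2 CPM in Rik null (lowest, median, highest) and 0.993, 2.70 and 5.03 CPM in WT (1.93, adjusted p = 0.00440). The highest value was that of Rik null 1, without which its log2 fold change was 0.92 (adjusted p = 0.00677), and it did not pass in females alone (2.01, 0.0746). Cst3, the secreted cystatin C, did not pass (0.03, 95% interval -0.18 to 0.23, adjusted p = 0.859), and its sign changed without Rik null 5 (-0.01) or WT 3 (-0.01), 6 (-0.04) or 7 (-0.01), and in females alone (-0.18).

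**Figure D5:**
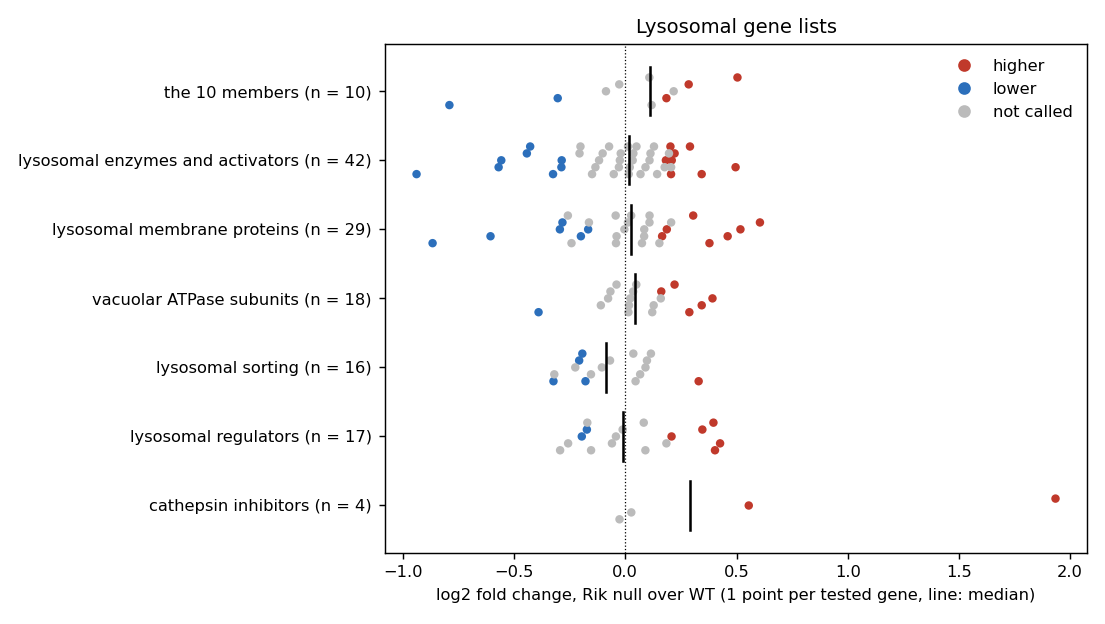
Log2 fold change, Rik null over WT, of the 10 genes and of 6 lists of other lysosomal genes, 1 point per tested gene, colored by call at an adjusted p under 0.05, with the median of each row as a line. In the rows of enzymes and of membrane proteins higher and lower calls lie on both sides of a median near 0, at 0.02 and 0.03.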

How the data were processed

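Brain RNA of 7 Rik null and 7 WT mice was analysed, with genotype, sex and replicate number from the sample labels. The study's figure legend for P23 brains gives other numbers of animals per genotype, and the labels were used here. The authors deposited raw counts per gene, FPKM values (counts divided by gene length and library total), a mean of normalized counts per genotype as signal columns, and log2 fold changes and p-values of their own comparison, which were not used. A commercial provider prepared and sequenced the libraries. GRCm38 is the build in the submitters' processing notes, and the sources used here give no aligner, counter or strand setting. Only 1485 of 52073 shared identifiers had the same chromosome and start in the table as in GENCODE M21 on GRCm38, so positions were taken from the latter by identifier.

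The count test was edgeR's two-sided quasi-likelihood F test (edgeR 4.0.16, R 4.3.3) at its defaults, fitted on genotype alone to TMM-scaled counts. The filterByExpr filter left 16882 genes, over which p was adjusted by Benjamini-Hochberg, and genes under 0.05 were called. SE is the log2 fold change over the square root of F, and the common biological coefficient of variation was 14.3%. Log2 CPM for residuals and differences from the WT mean used a prior count of 2. Ratios of counts within a library were compared by an exact permutation test over all 3432 splits, whose smallest p is 5.83e-04, with adjustment over 5 ratios, of which 4 are given. No pair of same-genotype libraries agreed within sampling noise (chi-square per degree of freedom of at least 4.69), and each library is 1 replicate. Per-gene scripts were tested on simulated data. The labels name no batch.

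The 10 genes and all lists were chosen with earlier results of these data known. The genes named are the 10, up to 4 of smallest p per list among those called, the partners Npc1 and Psap, Tfeb, Tfe3, Mitf and Cst3, and for likeness the 3 genes of highest r. The overlapping genes, Gm2a, Sgsh, Fnip2, Rragd, Rptor and Axl were added after their values were seen. Some genes under this rule are left without a value or are not reported here, though they are in the counts. Alternatives were DESeq2 1.42.0, RLE size factors, library size alone, scaling without mitochondrial genes, no filter, a filter of 1 CPM in 7 libraries, each library left out, females or males alone, and fits with sex or with the replicate number (as a block) beside genotype. Leaving out Rik null 1 with WT 4, and the principal transcript length, were added after seeing the data. RefSeq promoter windows were matched by symbol.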

Additional observations from a re-analysis of the deposited data

Results flagged for a closer look

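In a screen of 30 groups of 7 libraries (the 10 genes in both genotypes, and the partner ratios), 3 held a library far from its own group by Dixon's criterion, where chance gives about 1 in 20 groups. Ctsd had 266.2 CPM in Rik null 1, against 195.2 to 218.8 CPM in the other Rik null libraries, and without that library its log2 fold change was -0.07 (edgeR adjusted p = 0.469). Ctss had 80.4 CPM in Rik null 1, against 45.1 to 59.2 CPM in the other Rik null libraries. Grn had 54.5 CPM in WT 1, against 45.5 to 49.0 CPM in the other WT libraries. Rik null 1 was also the library that lay apart on the leading principal component, and its part in these values was not tested.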

How the results depend on the processing

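Ctsl and Hexa kept their direction and call under all 25 alternatives, with log2 fold changes of 0.44 to 0.57 and -0.83 to -0.72. The 3 genes called higher were 2 to 3 when each library was left out in turn, 5 with scaling by library size alone and 1 in females alone, and the 2 called lower were 2 with each library left out and 1 in males alone. Over all genes, 2783 were called higher (1282 in females alone, 1241 in males alone) and 3027 lower (1592 and 1496). Scaled by library size alone, 3890 of all genes were called higher and 2208 lower. Of the other lysosomal genes in the lists, 28 were called higher (36 with library size alone, 9 in females alone, 17 in males alone). Those called lower were 21 (13 with library size alone, 9 in females alone, 13 in males alone). The subsets by sex hold fewer samples, and for the other changes the cause was not tested. Ctsd changed sign with library size alone (0.0445), without Rik null 2 (range of -0.0753 to 0.0035 over each library left out) and in males alone (0.0084), and Ctsz in males alone (0.0759). With each library left out in turn, the log2 difference of Ctss over Ctsd was 0.21 to 0.29 and that of Npc2 over Npc1 -0.36 to -0.19. With the principal transcript length, WT levels per length were 199 for Lamp1, 120 for Ctsb, 26.3 for Npc2, 20.5 for Grn and 36.4 for Lamp2.

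The labels do not say whether replicate numbers pair the animals. Deviations of same-numbered libraries correlated at -0.06 to 0.14, and 3 of 7 libraries correlated best with their own number. Such values cannot decide it, since paired littermates need not correlate strongly. With the replicate number as a block, 4 of the 10 genes were called higher and 2 lower, 2898 of all genes were higher and 3068 lower, and Ctss was called (0.22, edgeR adjusted p = 0.0448). The lowest count of any of the 10 genes in a library was 328, for Hexa, and the lowest for Ctsz was 335. Summed over the libraries, Ctsz had 5982 counts and Hexa 6375, so counting error bears most on these genes.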
